A study of Mus musculus with 6 samples.

Results

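The genes described here are 8 genes of the lineage and identity of cerebellar granule cells, taken by name from the 23057 gene symbols of the deposited table: Zic1, Zic2, Pax6, Barhl1, Neurod1, Etv1, Fat2 and Cadps2. All 8 were found there, and all 8 could be tested, since each averaged 0.5 FPKM or more across the 6 libraries. FPKM counts fragments relative to transcript length and to library size, so levels can be set side by side between genes. The libraries come from brains of C57BL/6 mice, 3 mock-irradiated and 3 given 10 Gy of cranial X-rays through a round field of 10.08 mm in diameter, and all were collected at 30 days, after perfusion with PBS. No transgene, tumor or drug is named for either group, and the sources used here do not state the age of the animals. The labels give the tissue as whole dissected brain, and the series title places the study in work on senescence after radiation around brain tumors. The comparison therefore asks how much of each gene is measured in a normal brain 30 days after the dose, and differences are irradiated minus mock. Libraries are written as mock 1 to 3 and irradiated 1 to 3. Adjusted p-values set the difference between the groups against the spread between libraries of the same group.

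Granule cells are small glutamatergic neurons that fill the inner layer of the cerebellar cortex and send parallel fibres to the dendrites of Purkinje cells. Their progenitors arise from the rhombic lip of the hindbrain, divide in the outer layer after birth under Sonic hedgehog from Purkinje cells, and then migrate inward. Zic1, Zic2, Pax6 and Barhl1 encode transcription factors of progenitors and young granule cells, Neurod1 and Etv1 encode factors of their differentiation and maturation, Fat2 encodes a giant cadherin of their fibres, and Cadps2 encodes a protein that promotes release from dense-core vesicles. Most of these genes are also used elsewhere in the brain: Neurod1 in dentate granule cells, Pax6 in the olfactory bulb, Etv1 in deep cortical neurons, Zic1 and Zic2 in the septum and olfactory bulb, and Cadps2 in several groups of forebrain and midbrain neurons.

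Markers of several brain regions differed between the groups and among libraries of 1 group, and these values stand beside each result below. Of 10 hindbrain markers, 8 of them Hox genes, all 10 were lower in the irradiated libraries, with a summed level of 82.7 to 90.8 FPKM in the mock group against 1.27 to 6.03 FPKM after irradiation. Of 12 Purkinje cell markers 11 were lower, with sums of 968 to 1293 FPKM in the mock group against 192 to 225 FPKM after irradiation. Of 8 telencephalon markers 4 were higher, with sums of 9.16 to 46.8 FPKM in the mock group against 94.3 to 190.8 FPKM after irradiation, and mock 2 was the lowest. Without irradiated 3 only Neurod6 of these 4 was still called, and without mock 3 or irradiated 2 there were 2. The summed level of the 8 olfactory bulb markers split the groups. Mock 1, mock 3 and irradiated 1 had sums of 205 to 307 FPKM, and mock 2, irradiated 2 and irradiated 3 had sums of 30.1 to 62.3 FPKM. Th, 1 of the 8, did not follow this split, at 29.9, 11.6 and 29.2 FPKM in mock 1, 2 and 3 against 71.7, 45.8 and 31.8 FPKM in irradiated 1, 2 and 3. The 6 general neuron markers summed to 2288 to 2689 FPKM in the mock group against 2235 to 2661 FPKM after irradiation. The share of cerebellum in a library and the irradiation cannot be told apart in this design. In bulk RNA, fewer cells of a type and less RNA per cell cannot be told apart either.

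Promoter sequences are given for the members at the extremes of the comparison that have an entry in the RefSeq promoter table: the most reduced members Fat2, Zic1 and Neurod1, and the members without a call, Barhl1 and Cadps2. Each window runs from 250 bases before to 50 bases after an annotated start, is written 5′ to 3′ on the strand of the gene, and comes from build GRCm38.p6. Capitals mark matches, on either strand, to the letters searched: the E-boxes CAGATG and CAGCTG, which basic helix-loop-helix factors such as Neurod1 bind, CCTGCTG, the core of a Zic motif, TATAAA, and TTGGCA, a half-site of the nuclear factor I family. No printed window holds more than 1 match. The Fat2, Barhl1 and Cadps2 windows belong to annotated starts that lie inside the longest extent of the gene.
Fat2, chr11:55312208-55312507, minus strand: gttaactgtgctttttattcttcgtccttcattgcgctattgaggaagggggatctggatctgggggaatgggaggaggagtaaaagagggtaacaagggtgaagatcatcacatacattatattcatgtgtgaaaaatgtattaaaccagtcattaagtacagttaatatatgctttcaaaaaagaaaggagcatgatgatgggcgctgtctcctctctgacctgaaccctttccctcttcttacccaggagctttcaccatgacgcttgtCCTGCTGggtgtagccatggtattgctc
Zic1, chr9:91365719-91366018, minus strand: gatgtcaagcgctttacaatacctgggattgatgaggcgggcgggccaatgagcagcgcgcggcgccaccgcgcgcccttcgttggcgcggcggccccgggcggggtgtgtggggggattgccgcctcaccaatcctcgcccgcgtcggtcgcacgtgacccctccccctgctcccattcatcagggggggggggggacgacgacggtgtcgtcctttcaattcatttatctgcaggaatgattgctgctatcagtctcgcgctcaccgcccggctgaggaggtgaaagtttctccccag
Neurod1, chr2:79456587-79456886, minus strand: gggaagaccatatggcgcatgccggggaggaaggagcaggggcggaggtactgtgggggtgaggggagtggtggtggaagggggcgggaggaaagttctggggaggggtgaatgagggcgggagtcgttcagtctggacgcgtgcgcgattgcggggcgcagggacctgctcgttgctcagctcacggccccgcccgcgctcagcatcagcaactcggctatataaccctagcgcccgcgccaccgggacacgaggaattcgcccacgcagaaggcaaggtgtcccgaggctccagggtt
Barhl1, chr2:28916619-28916918, minus strand: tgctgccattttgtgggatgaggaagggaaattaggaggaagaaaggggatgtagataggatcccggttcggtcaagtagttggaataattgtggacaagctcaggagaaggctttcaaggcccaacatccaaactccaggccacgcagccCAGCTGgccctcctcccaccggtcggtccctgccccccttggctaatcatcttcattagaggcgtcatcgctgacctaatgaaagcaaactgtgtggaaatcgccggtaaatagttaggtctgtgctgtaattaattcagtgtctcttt
Cadps2, chr6:23839372-23839671, minus strand: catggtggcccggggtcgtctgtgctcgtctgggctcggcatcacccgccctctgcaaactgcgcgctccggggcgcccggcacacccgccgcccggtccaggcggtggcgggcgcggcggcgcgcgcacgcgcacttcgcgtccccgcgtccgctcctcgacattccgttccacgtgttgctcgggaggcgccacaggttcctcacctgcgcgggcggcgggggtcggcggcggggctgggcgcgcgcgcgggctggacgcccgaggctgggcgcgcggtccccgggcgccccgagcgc

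The printed windows held few matches to the letters searched, and the windows were not aligned with each other. The Fat2 window held 1 copy of CCTGCTG, at base 273 of the window and so beyond the start, and the printed Barhl1 window held 1 copy of CAGCTG, at base 152. A further annotated Barhl1 start, with the window chr2:28912446-28912745, also held 1 copy, at base 236. Of the 32851 windows in the table, 10.5% held CCTGCTG, 16.3% held CAGCTG, 17.2% held CAGATG, 13.6% held TATAAA and 14.1% held TTGGCA. The windows of Zic1, Neurod1 and Cadps2 held none of these letters. GC content was 43.7% in the Fat2 window, 50.3% in Barhl1, 65.3% in Zic1, 66.7% in Neurod1 and 79.7% in Cadps2, beside a median of 52.7% over all windows.

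Most of the members were lower in irradiated brains, and the members differed widely in how much remained. By a linear model across all tested genes (limma on log2(FPKM + 0.5), call at a Benjamini-Hochberg adjusted p under 0.05), 6 of the 8 were lower, 0 were higher and 2 were not called. Over all 14585 genes tested, 4.24% were called lower and 3.48% higher. Without adjustment, at p under 0.05, still 0 members were higher. At that threshold, which is also used for lists below, 2033 of the 14585 tested genes were lower and 1705 higher. For the same 6 members all 3 irradiated libraries lay below all 3 mock libraries, as they did for 17.7% of all tested genes, and no member had all 3 above, as 13.7% of tested genes did. The median difference over the members was -2.26 on the log2(FPKM + 0.5) scale, and over all tested genes it was -0.02. The irradiated mean as a share of the mock mean was 1.89% for Fat2, 10.04% for Zic1, 10.5% for Neurod1, 18.2% for Zic2, 20.002% for Pax6, 51.9% for Etv1, 56.0% for Barhl1 and 87.2% for Cadps2. The plot of each member by library is ordered by the mock mean instead, and there the gap between the group means is widest for Fat2 and narrowest for Cadps2.

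**Figure D1:**
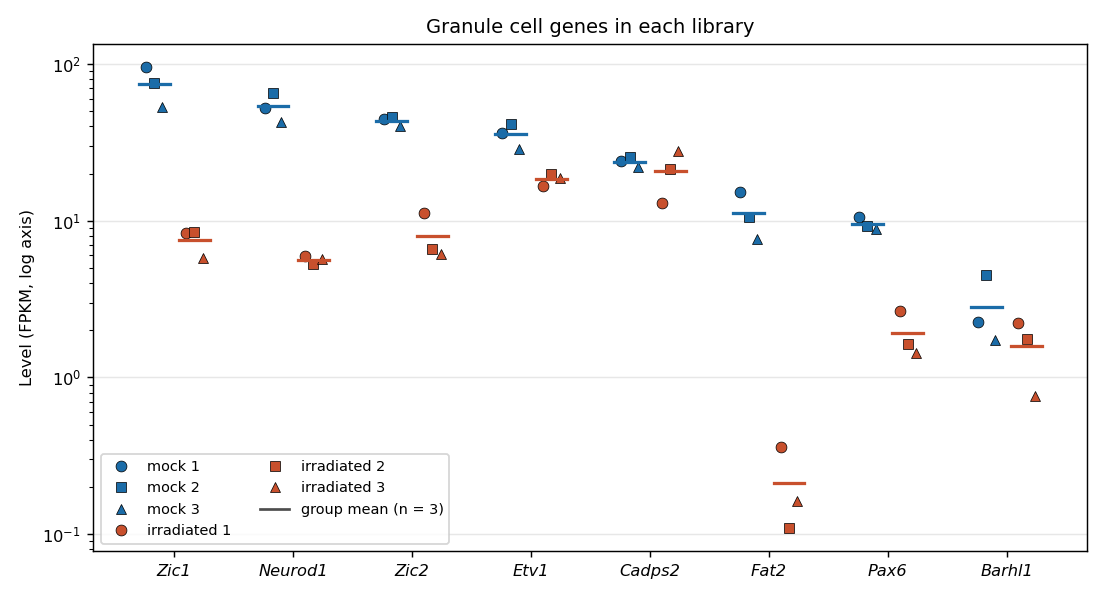
Level of each of the 8 granule cell genes in each library, in FPKM on a log axis, ordered by the mock mean; points are libraries (blue mock, red irradiated, symbol by replicate number) and lines are group means, n = 3 each. The groups are apart for Zic1, Neurod1, Zic2, Etv1, Fat2 and Pax6 and overlap for Cadps2 and Barhl1.

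Zic1 and Zic2 encode zinc-finger transcription factors that keep granule progenitors in their state and later bind enhancers of maturing granule cells. Zic1, on chromosome 9 from 91358058 to 91365768, was at 95.7, 75.5 and 53.2 FPKM in mock libraries 1, 2 and 3 and at 8.36, 8.43 and 5.74 FPKM in irradiated 1, 2 and 3, an order kept below. It was the most abundant member in mock brain, and even its lowest mock library lay far above every irradiated one. Its difference was -3.21 on the log2(FPKM + 0.5) scale (SE 0.24, limma adjusted p = 0.00039).

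Zic2, on chromosome 14 from 122475384 to 122480328, was at 44.8, 45.6 and 40.4 FPKM in the mock group against 11.1, 6.55 and 6.16 FPKM after irradiation. The mock libraries lay close together and irradiated 1 stood above the other irradiated libraries. The difference was -2.43 on the log2 scale (SE 0.22, limma adjusted p = 0.00083). In irradiated 1 the olfactory bulb markers summed to 307 FPKM, against 62.3 and 52.2 FPKM in irradiated 2 and 3. In mock 1, 2 and 3 they summed to 205, 30.1 and 228 FPKM, where Zic2 was highest in mock 2. Their part in the Zic2 value was not tested.

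Each of these genes has a Zic neighbour, and both neighbours were lower as well. Zic4 lies on the other strand of chromosome 9 from 91365631 to 91389351, so that the annotated Zic1 and Zic4 overlap by 138 bases. Zic4 was at 4.09, 4.07 and 3.31 FPKM in the mock group against 0.92, 0.81 and 0.55 FPKM after irradiation (log2 difference -1.79, SE 0.19, limma adjusted p = 0.00128). Zic5 ends 9725 bases before Zic2 and was at 6.89, 6.66 and 5.42 FPKM in the mock group against 0.67, 1.13 and 0.88 FPKM after irradiation (log2 difference -2.30, SE 0.19, adjusted p = 0.00053). The library kit marks strand, but whether the authors counted by strand is not given in the sources used here, so reads in the Zic1 and Zic4 overlap may be shared. Zic1 exceeded Zic4 by 16.1 to 23.4 times in the mock group and by 9.09 to 10.4 times after irradiation.

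Pax6 encodes a paired-domain and homeodomain factor of the rhombic lip, of granule cells and of several olfactory bulb interneurons. Pax6, on chromosome 2 from 105668896 to 105698410, was at 10.5, 9.31 and 8.88 FPKM in the mock group against 2.67, 1.64 and 1.43 FPKM after irradiation. As with Zic2, the mock libraries were close together and irradiated 1 was the highest of its group. The difference was -2.09 on the log2 scale (SE 0.21, limma adjusted p = 0.00119). The antisense transcript Pax6os1 overlaps Pax6 by 1435 bases and did not exceed 0.36 FPKM in any library. Elp4, an Elongator subunit gene, overlaps Pax6 by 1091 bases and was at 3.64 to 3.76 FPKM in the mock group against 2.51 to 2.80 FPKM after irradiation, above Pax6 in irradiated 2 and 3, so reads of the overlap may be shared here too.

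Barhl1 encodes a homeobox factor needed for granule cell migration and survival, and it is also used in other hindbrain, midbrain and hypothalamic neurons. Barhl1, on chromosome 2 from 28907680 to 28917984, was the lowest member in mock brain, at 2.24, 4.50 and 1.74 FPKM, and was at 2.24, 1.75 and 0.76 FPKM after irradiation. The groups overlapped, with mock 2 well above the rest and irradiated 3 below. The difference of -0.66 on the log2 scale had a 95% interval of -1.49 to 0.17 and was not called (limma adjusted p = 0.29). The interval also covers differences as large as that of Etv1, so the data do not separate Barhl1 from a moderately reduced gene. Without mock 2, the library with the fewest telencephalon markers, the difference was -0.32 (adjusted p = 0.65), and without irradiated 3 it was -0.34 (adjusted p = 0.65).

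Neurod1 encodes a basic helix-loop-helix factor that takes granule cells out of the cell cycle and into differentiation, and that dentate granule cells also need. Neurod1, on chromosome 2 from 79452637 to 79456636, was at 52.8, 65.6 and 42.4 FPKM in the mock group against 5.92, 5.28 and 5.72 FPKM after irradiation. What remained was nearly even across the irradiated libraries, at 9.85% to 11.04% of the mock mean. The difference was -3.12 on the log2 scale (SE 0.19, limma adjusted p = 0.00019). Among 7 dentate granule cell markers, 4 were higher and 0 were lower in the same libraries by limma (the same counts without adjustment, at p under 0.05). Without irradiated 3, or without any 1 of the mock libraries, 2 of these 4 calls were kept. The summed level of the 7 was 14.7 to 19.6 FPKM in the mock group against 45.6 to 59.2 FPKM after irradiation, a rise carried by C1ql2, a secreted synaptic protein of mossy fibres. Without C1ql2 the sums overlapped, at 12.03 to 15.6 FPKM against 13.4 to 18.4 FPKM, and Prox1, the dentate identity factor, had a log2 difference of -0.13 that was not called. Of the markers, none of the 7 was at 0 in a whole group, and their part in the Neurod1 that remained was not tested.

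Etv1 encodes an ETS-family factor that turns on late granule cell genes, among them receptor subunits of the mature synapse. Etv1, on chromosome 12 from 38780082 to 38870483, was at 36.4, 41.7 and 28.6 FPKM in the mock group against 16.6, 19.9 and 18.9 FPKM after irradiation. The groups did not overlap, with the lowest mock library at 28.6 FPKM and the highest irradiated one at 19.9 FPKM. The difference was -0.91 on the log2 scale (SE 0.18, limma adjusted p = 0.021). The call did not hold without mock 1 (adjusted p = 0.082), without mock 2 (0.067), without irradiated 3 (0.072), without a filter on low values (0.084) or with mock 2 and irradiated 1 both left out (0.051), and the adjusted p over all 16 alternatives ranged from 0.015 to 0.084.

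Fat2 encodes an atypical cadherin of granule cell parallel fibres, and of the members it is the one most restricted to these cells. Fat2, on chromosome 11 from 55250609 to 55337505, was at 15.3, 10.6 and 7.67 FPKM in the mock group against 0.36, 0.11 and 0.16 FPKM after irradiation. It was the least abundant member in irradiated brain and the only one of the 8 under 0.5 FPKM in each irradiated library. The difference was -4.00 on the log2(FPKM + 0.5) scale (SE 0.26, limma adjusted p = 0.00021). Because the irradiated values lie below the 0.5 that is added, the size depends on it: the difference was -5.21 with 0.1 added and -3.29 with 1 added, and it was called in both.

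Cadps2 encodes a protein that primes dense-core vesicles and supports the release of neurotrophins from granule cells. Cadps2, on chromosome 6 from 23262773 to 23841175, was at 23.9, 25.4 and 21.9 FPKM in the mock group against 12.9, 21.2 and 28.0 FPKM after irradiation. The mock libraries were nearly equal, while irradiated 1 lay below and irradiated 3 above all of them. The difference of -0.26 on the log2 scale (SE 0.26, 95% interval -0.85 to 0.33, limma adjusted p = 0.56) was not called. Without irradiated 1 it was 0.04 (adjusted p = 0.91), so its direction rests on that library. The telencephalon markers summed to 94.3, 116.8 and 190.8 FPKM in irradiated 1, 2 and 3, the order of Cadps2, but to 46.8, 9.16 and 45.9 FPKM in mock 1, 2 and 3, where Cadps2 was highest in mock 2. Their part was not tested.

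The order of the levels was different in the groups. In mock brain it ran from Zic1 at 74.8 ± 21.3 FPKM, Neurod1 at 53.6 ± 11.6, Zic2 at 43.6 ± 2.81 and Etv1 at 35.6 ± 6.61 to Cadps2 at 23.8 ± 1.75, Fat2 at 11.2 ± 3.84, Pax6 at 9.56 ± 0.83 and Barhl1 at 2.83 ± 1.47 FPKM (mean ± SD, n = 3). The ranges of neighbouring genes in that order overlapped from Zic1 down to Etv1 and between Fat2 and Pax6. Within each mock library, though, the order from Zic1 through Neurod1 and Zic2 to Etv1 was the same. Fat2 and Pax6 changed places, with Pax6 the higher in mock 3, so that rank is not settled. In irradiated brain Cadps2 at 20.7 ± 7.54 and Etv1 at 18.4 ± 1.65 FPKM came first and overlapped each other. Zic2 at 7.95 ± 2.77, Zic1 at 7.51 ± 1.53 and Neurod1 at 5.64 ± 0.33 FPKM followed and overlapped in turn. Pax6 at 1.91 ± 0.66 and Barhl1 at 1.58 ± 0.75 FPKM overlapped, and Fat2 at 0.21 ± 0.13 FPKM was last (SD, n = 3). Within each irradiated library Zic1 exceeded Neurod1, though only by 5.74 against 5.72 FPKM in irradiated 3. The order of Cadps2 and Etv1, of Zic2 and Zic1, and of Pax6 and Barhl1 changed between irradiated libraries. Cadps2 and Etv1 together made up 21.4% to 24.6% of the summed FPKM of the members in the mock group against 49.1% to 70.1% after irradiation. Zic1, Neurod1 and Zic2 made up 66.4% to 68.6% in the mock group against 26.4% to 42.2% after irradiation.

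Set against Fat2, the member with the largest difference, the others kept more. The log2 ratio to Fat2, with 0.5 FPKM added to both genes, was greater after irradiation by 0.79 for Zic1, 0.88 for Neurod1, 1.57 for Zic2, 1.91 for Pax6, 3.09 for Etv1, 3.34 for Barhl1 and 3.75 for Cadps2. The choice of Fat2 as the reference fixes the sign of these values, so they are a description of size. They depend on the amount added: with 0.1 the values for Zic1 and Neurod1 were 1.93 and 2.00, and with 1 they were 0.16 and 0.27 and the groups overlapped for both.

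As a description over the 6 libraries, the 6 called members had pairwise Pearson correlations of log2 level of 0.895 to 0.9985, of which the group difference is the main part. Once each group's mean was removed, r was 0.97 between Zic2 and Pax6, 0.78 between Fat2 and Zic1, and 0.78 between Neurod1 and Etv1, while Etv1 gave -0.20 with Zic2 and -0.24 with Pax6. All these points share the same 6 libraries. By the rule for likeness (highest r of log2 level over the 6 libraries among 2383 tested genes with an SD of at least 0.5), the 5 genes closest to the mean profile of the members were Aqp6, Chn2, Zic4, Pde1c and Slc6a5, with r from 0.996 to 0.998. Chn2 is a Rac-regulating protein of granule cells, and Slc6a5 is the glycine transporter of hindbrain and spinal inhibitory neurons. The closest to single members were Emilin3 for Fat2, Slco4a1 for Zic1, Arhgef33 and then Cbln3 for Zic2, Icmt for Etv1, Ltbp2 for Pax6 and 2700070H01Rik for Neurod1, each at an r of 0.997 or more. For the members that were not called the closest genes were Bet1 for Barhl1 (r = 0.974) and Acot6 for Cadps2 (r = 0.971), and neither of these was called.

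The wider granule cell programme was lower in part. Among 23 other granule cell genes 22 were tested, and 13 were lower, 1 was higher and 8 were not called, with a median log2 difference of -0.94. The lowest were 2 products of mature granule cells. Gabra6, the GABA-A receptor subunit that defines granule cells among cerebellar neurons, had a mean of 0.56% of its mock mean left, with 52.9 to 127 FPKM in the mock group against 0 to 1.39 FPKM after irradiation, where 0 is a listed value. Cbln3, a cerebellin secreted with Cbln1 from parallel fibres, was at 94.1, 106 and 62.7 FPKM in the mock group against 1.56, 0.15 and 0.15 FPKM after irradiation, which is 0.71% of its mock mean (log2 difference -6.49, SE 0.43, limma adjusted p = 0.00022). In irradiated 2 and 3 both Gabra6 and Cbln3 were at or near 0, and in irradiated 1 they were at 1.39 and 1.56 FPKM. These 2 are the most reduced genes of the list. Other products called lower kept more of the mock mean, with 9.53% for Cbln1, 15.4% for Chn2, 26.8% for Cdh15 and 35.1% for Grin2c. Which cells the remaining RNA of the members came from was not tested.

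Of the 12 mature products 8 were lower and 1 was higher. Cbln1, the cerebellin that links parallel fibres to Purkinje cells, was at 171, 179 and 149 FPKM in the mock group against 21.0, 13.4 and 13.2 FPKM after irradiation (log2 difference -3.38, SE 0.21). Chn2 had a difference of -2.64 (SE 0.19), Cdh15, a cadherin, one of -1.72 (SE 0.22) and Grin2c, an NMDA receptor subunit of mature granule cells, one of -1.48 (SE 0.15). Gabrd, the GABA-A subunit of tonic inhibition, which the dentate gyrus also uses, had a difference of -0.93, and Kcnd2, a potassium channel of wide use, one of -0.57. Both of these calls were lost without mock 1, without mock 2, without irradiated 1 or without irradiated 2, with a largest adjusted p over the alternatives of 0.12 and 0.16, and that of Kcnd2 was also lost without mock 3, without irradiated 3 and with median centring. Slc17a7, the vesicular glutamate transporter that cortical, hippocampal and granule neurons share, was at 211, 86.8 and 156 FPKM in the mock group against 342, 347 and 647 FPKM after irradiation. It was called higher (log2 difference 1.58, SE 0.37, limma adjusted p = 0.038), but not with quantile normalization (0.059) or without mock 2, mock 3, irradiated 2 or irradiated 3 (up to 0.17). The telencephalon markers given above were higher in the same libraries, and their part in this value was not tested.

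Of the 11 progenitor and differentiation factors 10 were tested, with 5 lower and 0 higher by limma (without adjustment, at p under 0.05, 6 lower and 0 higher). Tlx3, a homeobox factor of glutamatergic hindbrain and cerebellar neurons, measured 5.81, 3.61 and 7.67 FPKM in the mock group against 0.27, 0 and 0.15 FPKM after irradiation, where 0 is a listed value. En2, which patterns the midbrain and cerebellum, was at 19.3, 23.6 and 14.4 FPKM in the mock group against 2.03, 2.52 and 0.78 FPKM after irradiation (log2 difference -3.17, SE 0.33). Meis1, a homeobox factor of granule progenitors, had a difference of -2.16 (SE 0.30), Mab21l1 one of -1.67 (SE 0.37) and Cntn2, an adhesion protein of young granule axons, one of -0.95 (SE 0.22). The call for Meis1 held in 15 of 16 alternatives, for Mab21l1 in 12 and for Cntn2 in 8. Without mock 1, mock 2 or mock 3 neither Mab21l1 nor Cntn2 was called, and Cntn2 was also not called without irradiated 1 or irradiated 3. The nuclear factor I genes, which drive late granule cell genes and are also active in glia and forebrain, were not called: Nfia had a difference of -0.44, Nfib of 0.38 and Nfix of -0.12. Atoh1, the factor that defines dividing granule progenitors, was listed at 0.04 FPKM in mock 1 and at 0 in the other 5 libraries.

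**Figure D2:**
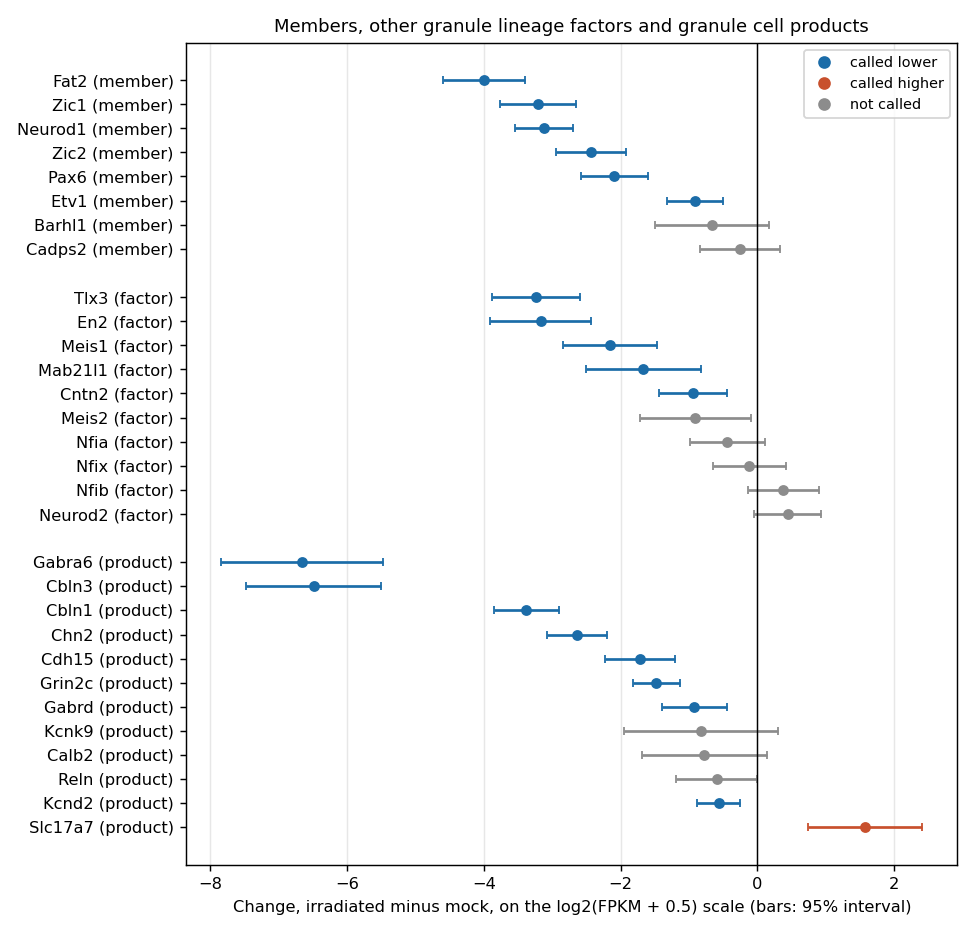
Difference between irradiated and mock libraries on the log2(FPKM + 0.5) scale for the 8 members, the 10 tested lineage factors and the 12 granule cell products, each with its 95% interval from limma (n = 3 per group; blue called lower, red called higher, grey not called). Gabra6 and Cbln3 lie farthest to the left, at -6.66 and -6.49, and Slc17a7 alone is called higher.

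The paralogs of the members did not share one direction, and families differed. Of 16 paralogs 14 were tested, with 5 lower, 1 higher and 8 not called, and a median log2 difference of -0.20. The neighbours of Zic1 and Zic2 were lower like the members, with log2 differences of -3.21 for Zic1, -2.43 for Zic2, -2.30 for Zic5 and -1.79 for Zic4. The signs of these 4 differences were the same with median centring and with quantile normalization.

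The Neurod genes went apart. Neurod6, a factor of forebrain excitatory neurons, measured 6.68, 5.39 and 7.75 FPKM in the mock group against 18.0, 20.8 and 31.2 FPKM after irradiation (log2 difference 1.72, SE 0.23, limma adjusted p = 0.0039). Neurod2, which both cortical and granule neurons use, had a difference of 0.44 (SE 0.22, adjusted p = 0.24). Neurod1 exceeded Neurod2 by 2.67 to 3.63 times in mock and lay at 0.17 to 0.28 of it in irradiated libraries. Neurod4 did not exceed 0.074 FPKM and was not tested. Neurod6 is itself among the 8 telencephalon markers, which were higher in these libraries.

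Among the other families, Fat1, a cadherin of progenitors and glia, was at 10.7, 6.10 and 6.68 FPKM in the mock group against 2.23, 4.10 and 3.36 FPKM after irradiation. Its difference of -1.15 (SE 0.27, limma adjusted p = 0.038) was lost without mock 1, mock 2, mock 3, irradiated 1 or irradiated 3 (up to 0.16). Fat3 and Fat4 had differences of -0.18 and 0.32 and were not called. Barhl2 was lower where Barhl1 was not called: it was at 5.28, 4.16 and 5.35 FPKM in the mock group against 1.33, 1.20 and 0.30 FPKM after irradiation (log2 difference -1.998, SE 0.31, adjusted p = 0.00795). The difference between the changes of these genes was not tested. Pax2, a factor of cerebellar and hindbrain inhibitory neurons, had a difference of -2.79 (SE 0.25, adjusted p = 0.00063), and Pax3 one of -0.79 and Pax7 one of 1.09 that were not called. Etv4, Etv5 and Cadps, with differences of -0.06, 0.23 and -0.21, were not called.

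**Figure D3:**
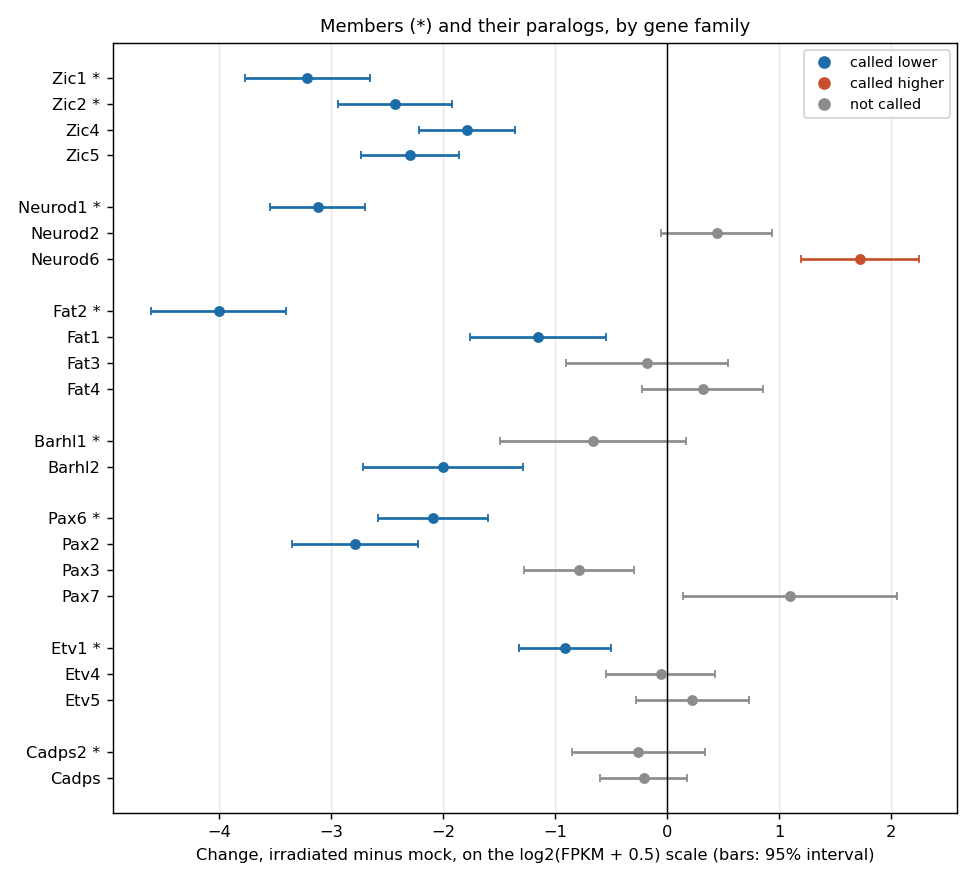
Difference between irradiated and mock libraries on the log2(FPKM + 0.5) scale for the members (marked with an asterisk) and their tested paralogs, grouped by gene family, with 95% intervals from limma (n = 3 per group). The 4 Zic genes shown lie left of 0, while Neurod1 and Neurod6 lie on opposite sides, at -3.12 and 1.72.

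The Sonic hedgehog pathway drives granule progenitors in the young cerebellum and is used by astrocytes and Purkinje cells in the adult. Of its 15 genes 14 were tested, with 2 lower and 0 higher by limma and a median log2 difference of -0.37. Without adjustment, at p under 0.05, 6 were lower and 2 higher, beside 2033 lower and 1705 higher of all 14585 tested genes. Boc, a coreceptor of the ligand, was at 11.04, 9.62 and 8.07 FPKM in the mock group against 3.28, 5.18 and 3.82 FPKM after irradiation (log2 difference -1.14, SE 0.20, adjusted p = 0.015). Gas1, another coreceptor, had a difference of -0.89 (SE 0.21, adjusted p = 0.042). Boc was not called without mock 1, mock 2 or irradiated 3 (up to 0.084), and Gas1 was called in 7 of 16 alternatives, not with median centring (0.054), with quantile normalization (0.072) or without mock 1, mock 2, mock 3, irradiated 2 or irradiated 3. Ptch1, the receptor and a target of the pathway, had a difference of -1.39 (adjusted p = 0.056) and Gli1, its transcriptional effector and target, one of -0.88 (adjusted p = 0.09). Smo and Sufu, which relay the signal, had differences of -0.03 and -0.05. Cdon, a coreceptor, and Hhip, which binds the ligand, had differences of -0.88 and -0.69 (adjusted p = 0.061 and 0.077). The D-type cyclins of progenitors had the opposite sign, with differences of 0.53 for Ccnd1 (adjusted p = 0.073) and 1.03 for Ccnd2 (adjusted p = 0.084), and neither was called.

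Without a filter on low values, which put 23057 genes in the adjustment, the calls for Meis1, Mab21l1, Cntn2, Cdh15, Gabrd, Slc17a7, Barhl2, Fat1, Neurod6, Boc and Gas1 were lost as well.

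**Figure D4:**
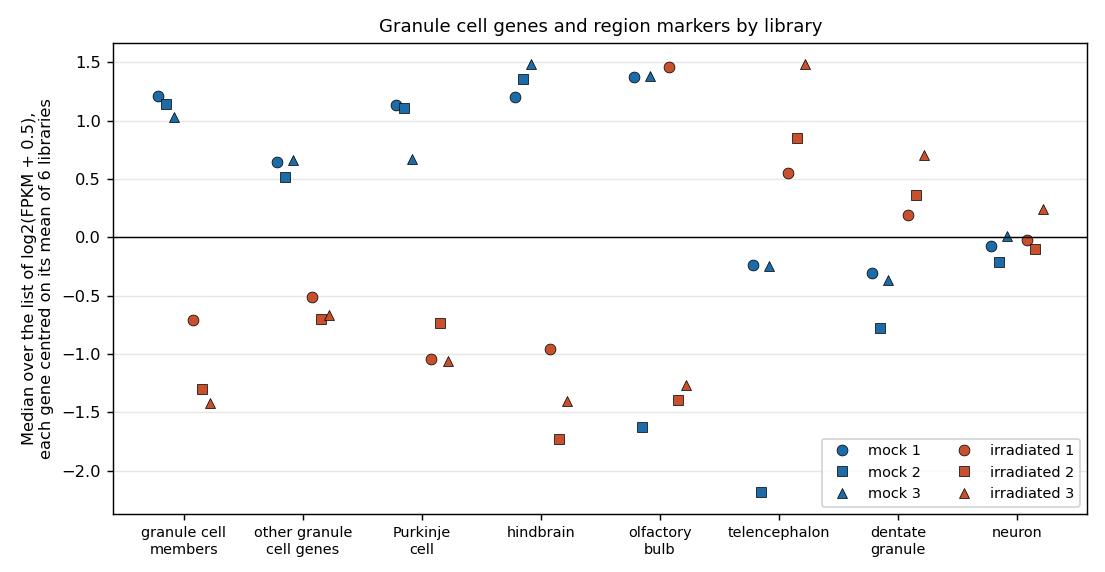
Median over each gene list of log2(FPKM + 0.5), after each gene was centred on its mean of the 6 libraries, for the granule cell members, the other granule cell genes and markers of other regions and cells; points are libraries (blue mock, red irradiated, symbol by replicate number). The granule, Purkinje and hindbrain lists separate the groups with irradiated lower, and the telencephalon and dentate granule lists separate them with irradiated higher. The olfactory bulb list puts irradiated 1 with mock 1 and mock 3, and the neuron list shows no separation.

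The median of the members, on the centred log2 scale, separated the groups as the Purkinje cell and hindbrain lists did, but the libraries within a group were not in the same order. It was 1.22, 1.15 and 1.03 in the mock group against -0.71, -1.30 and -1.42 after irradiation. The hindbrain list was at 1.20, 1.36 and 1.48 in the mock group against -0.96, -1.73 and -1.40 after irradiation. Irradiated 1 was thus the highest irradiated library by both medians, while the summed FPKM of the members was lowest there, at 60.2 against 64.9 and 66.8 FPKM, as were Etv1 and Cadps2. For Purkinje cell markers irradiated 2 was the highest, at -0.74 against -1.05 and -1.06 in irradiated 1 and 3. With mock 2 and irradiated 1 both left out, 5 members were lower and 0 higher, Etv1 being the one that was no longer called, against 672 genes lower and 620 higher in all.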

How the data were processed

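The authors deposited FPKM values in 1 table of 6 library columns. Per the submitters' processing notes, the tools were TopHat, Cufflinks and Cuffdiff and the build was mm10. Versions, settings, annotation, scaling total and use of strand: not given in the sources used here. Per the labels' protocols, rRNA-depleted stranded libraries were read as single ends of 75 nucleotides, about 30 to 40 M reads each. Depth beyond that is unknown.

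After 1 leftover header line was dropped, the 14585 genes averaging 0.5 FPKM or more entered a limma fit (3.58.1, under R 4.3.3) of log2(FPKM + 0.5) on group, with a variance trend. Tests were two-sided, and p-values were adjusted by Benjamini-Hochberg across these genes. Differences of low genes are understated on this scale. On data simulated for this comparison, 200 of 14585 genes were changed, and noise was drawn separately for each gene. There 41% of genes changed by 1 and 94% of genes changed by 2 on the log2 scale were called. Of the calls 6.25% were unchanged genes. Spread shared between genes was not simulated, and more genes than 200 were called in the data, so these shares may differ here.

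The members and lists were chosen with earlier results of these data known. A list member is not reported here and was taken out of its list. The genes named are the members, up to 4 genes per list by lowest p, those listed at 0, list members given to describe a family, and the genes most like a member. Positions (8 of 8 members) and promoter windows (7 of 8) are RefSeq's, build GRCm38.p6. The 16 alternatives were 2 pseudocounts, 2 filters, 2 scalings, robust variance, library weights, the replicate block, each library left out, and mock 2 and irradiated 1 left out together, the last chosen after seeing the data. A planned permutation test of ratios to Fat2 is not reported, because the choice of Fat2 fixes the sign of the ratios.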

Additional observations from a re-analysis of the deposited data

How the results depend on the processing

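Neurod1, Fat2, Zic1, Zic2 and Pax6 were called lower in all 16 alternatives, with log2 differences of -3.27 to -2.96, -5.21 to -3.29, -3.44 to -3.01, -2.68 to -2.28 and -2.32 to -1.88. Barhl1 and Cadps2 were called in none. Etv1 was not called without a filter (-0.91), with mock 2 and irradiated 1 both left out (-0.72), or without mock 1, mock 2 or irradiated 3, within -1.06 to -0.79 over the libraries left out in turn. Cadps2 turned to 0.088 with mock 2 and irradiated 1 left out, and ranged from -0.50 to 0.039 over the libraries left out in turn. The count of members lower was 5 or 6 throughout. Genes called in all were 111 higher and 224 lower without a filter, 863 and 976 with library weights, and 147 to 673 higher and 254 to 695 lower with 1 library left out. Other granule cell genes were 8 lower and 0 higher without a filter, 0 higher with quantile normalization, and 0 to 1 higher with 1 library left out. Paralogs were 3 lower and 0 higher without a filter. Hedgehog genes were 0 lower without a filter, 1 lower and 1 higher with median centring and with quantile normalization, 1 higher with library weights, 1 lower with mock 2 and irradiated 1 left out, and 0 to 3 lower with 1 library left out. The cause of these shifts was not tested, except that the fit without a filter tested 23057 genes.

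Equal replicate numbers are not said to pair mice, and their deviations from the group means correlated at -0.33, 0.19 and 0.20, so the numbers were not taken as pairs. With the replicate block, 401 genes were higher and 394 lower, and 2 paralogs were higher. Fat1, Gabrd, Kcnd2, Cntn2, Dcn, the dentate marker Trpc6 and the telencephalon marker Bcl11b were not called with it. The 6 members called stayed called with the block.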

Other observations

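Ratios between members, looked at after the values had been seen, gave 2 patterns. The ratio of Zic2 to Pax6 FPKM was 4.27, 4.90 and 4.55 in the mock group against 4.17, 3.99 and 4.32 after irradiation, although 18.2% and 20.002% of the mock means remained and both stood higher in irradiated 1. The ratio of Barhl1 to Barhl2 FPKM was 0.42, 1.08 and 0.33 in the mock group against 1.68, 1.46 and 2.57 after irradiation, so the more abundant gene of this pair was a different one in mock 1 and mock 3 than in the 3 irradiated libraries.

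Markers of other cell types at the surface and in the cerebellum were also measured. Of 6 meningeal fibroblast markers 1 was higher, Dcn, a matrix proteoglycan, at 14.4, 18.4 and 17.1 FPKM in the mock group against 37.8, 24.1 and 40.2 FPKM after irradiation. This call was lost in 8 of the 16 alternatives, among them leaving out mock 1, mock 2, mock 3, irradiated 1 or irradiated 3. Of 5 Bergmann glia markers, which belong to the astrocytes beside Purkinje cells, 2 were lower: Gdf10, a growth factor, at 34.1, 33.0 and 30.0 FPKM in the mock group against 4.604, 3.08 and 4.71 FPKM after irradiation, and Hopx, with a log2 difference of -1.20 (SE 0.17). The 4 oligodendrocyte markers summed to 4509 to 5565 FPKM in the mock group against 2144 to 3835 FPKM after irradiation. By limma 0 of the 4 were called, and without adjustment, at p under 0.05, all 4 were lower, as were 2033 of all 14585 tested genes. Of 5 astrocyte markers 1 was lower, the water channel gene Aqp4 (log2 difference -1.03), a call lost without mock 1 or irradiated 3. Of 4 choroid plexus markers 1 was lower, the potassium channel subunit gene Kcne2 (log2 difference -1.56).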
